A study of Homo sapiens with 6 samples.

Results

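The mitosis and spindle genes are a list of 57 human genes whose products drive chromosome segregation and cell division, defined by gene name and not by a measured threshold. A gene's probe sets were those annotated to that gene alone, which gave 113 of the 54613 probe sets on the array that are not controls. Of the 19775 genes that the array names in this way, 12078 were bright enough to be tested, and all 57 mitotic genes were among them. By role they comprise 12 kinases, cyclins and their partners, 17 proteins of the kinetochore, its checkpoint and the chromosomal passenger complex, 10 kinesins, 4 cytokinesis proteins, 6 spindle assembly proteins, 5 anaphase and ubiquitin proteins, and 3 proteins of chromosomes and transcription. RNA came from sorted CD24+ and CD24- fractions of ARP1, OCI-MY5 and OPM2, established human cell lines of multiple myeloma, in which antibody-secreting plasma cells turn malignant. The lines were cultured in RPMI-1640 medium with serum and antibiotics, and their cells were separated by flow cytometry with an antibody against CD24, a small glycosylated surface protein. The submitters call the CD24+ cells myeloma cancer stem cells, and the study set them against the CD24- cells. Each line gave 1 Affymetrix U133 Plus 2.0 array of each fraction, so each group held 3 arrays and no fraction of a line was measured again.

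Cells enter mitosis when CDK1, bound to cyclin B, is switched on, and Aurora and Polo-like kinases then direct the building of the spindle. Kinetochores join each chromosome to spindle microtubules, and a checkpoint holds the cell until every chromosome is attached. The anaphase-promoting complex then marks cyclin B and securin for destruction, the sister chromatids part, and kinesins and the contractile ring complete the division. Transcripts of these genes build up in G2 and mitosis, under the DREAM repressor complex in resting cells and B-Myb, the MuvB complex and FOXM1 in dividing ones. Their promoters are known for the cell cycle genes homology region, or CHR element, which the MuvB complex binds, and for CCAAT boxes, which NF-Y binds.

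The promoters shown are those of the first 6 genes, in the order of the naming rule given under data processing, that hold either element. That order begins with genes that had large mean differences of 1 sign between the fractions. Each promoter runs 5′ to 3′ from 120 bases before to 20 bases after the transcript start, in RefSeq on build GRCh38.p14. Capitals mark CHR elements, spelled TTTGAA or TTCGAA, and boxes spelled CCAAT, on either strand. A CHR element on the opposite strand therefore reads TTCAAA here. A CCAAT box on that strand reads ATTGG.
CKS2, chr9:89311075-89311214, plus strand: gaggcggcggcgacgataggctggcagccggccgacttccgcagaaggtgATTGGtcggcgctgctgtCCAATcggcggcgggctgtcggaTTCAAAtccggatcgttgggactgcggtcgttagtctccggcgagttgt
CDCA8, chr1:37692396-37692535, plus strand: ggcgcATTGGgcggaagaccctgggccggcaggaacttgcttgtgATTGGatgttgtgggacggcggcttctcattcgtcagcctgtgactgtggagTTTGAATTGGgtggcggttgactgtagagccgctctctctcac
KIF14, chr1:200620732-200620871, minus strand: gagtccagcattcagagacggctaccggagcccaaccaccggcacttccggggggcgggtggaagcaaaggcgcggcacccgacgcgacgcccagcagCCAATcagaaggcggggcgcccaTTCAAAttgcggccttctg
KIF18A, chr11:28108137-28108276, minus strand: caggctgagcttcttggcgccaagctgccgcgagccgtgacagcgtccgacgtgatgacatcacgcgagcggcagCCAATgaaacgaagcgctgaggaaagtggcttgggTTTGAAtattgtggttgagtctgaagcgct
KIF15, chr3:44761674-44761813, plus strand: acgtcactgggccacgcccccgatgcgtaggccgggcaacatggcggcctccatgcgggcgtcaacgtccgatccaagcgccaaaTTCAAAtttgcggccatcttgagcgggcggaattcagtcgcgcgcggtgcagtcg
ANLN, chr7:36389742-36389881, plus strand: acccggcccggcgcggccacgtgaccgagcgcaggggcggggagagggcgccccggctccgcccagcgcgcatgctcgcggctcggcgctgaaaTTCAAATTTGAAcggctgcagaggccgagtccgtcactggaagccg
The CHR element of CKS2 begins 29 bases before the transcript start, with CCAAT boxes at 70 and 52 bases before it. In CDCA8 the element begins 23 bases before the start and shares bases with a CCAAT box on the opposite strand. KIF14 has its element 2 bases inside the transcript, and KIF18A 10 bases before the start, each with 1 CCAAT box upstream. KIF15 holds a CHR element and no CCAAT box in the stretch shown, and ANLN holds 2 adjoining CHR elements and no CCAAT box.

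RefSeq promoters of 250 bases before to 50 bases after the start were found for 49 of the 57 genes, in 63 entries. A CHR element in either form lay in 38 of the 49 genes (77.6%), against 19.5% of the 27305 genes with a promoter entry. A CCAAT box lay in 41 of them (83.7%, against 39.7%), and both lay in 32 (65.3%, against 7.85%). The E2F site core GCGGGAA, an element of many genes of DNA replication, lay in 6 (12.2%, against 7.82%). The matches were concentrated near the start. In the last 50 bases before the start, 38.1% of the mitotic promoters held a CHR element, against 2.73% of all 35116 promoters, and in the first 50 bases after it 22.2% did, against 2.41%. CCAAT boxes were most frequent from 100 to 51 bases before the start, in 54.0% of the mitotic promoters, against 12.9% of all. These are counts of letters in a window and do not show that a factor binds there.

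**Figure D1:**
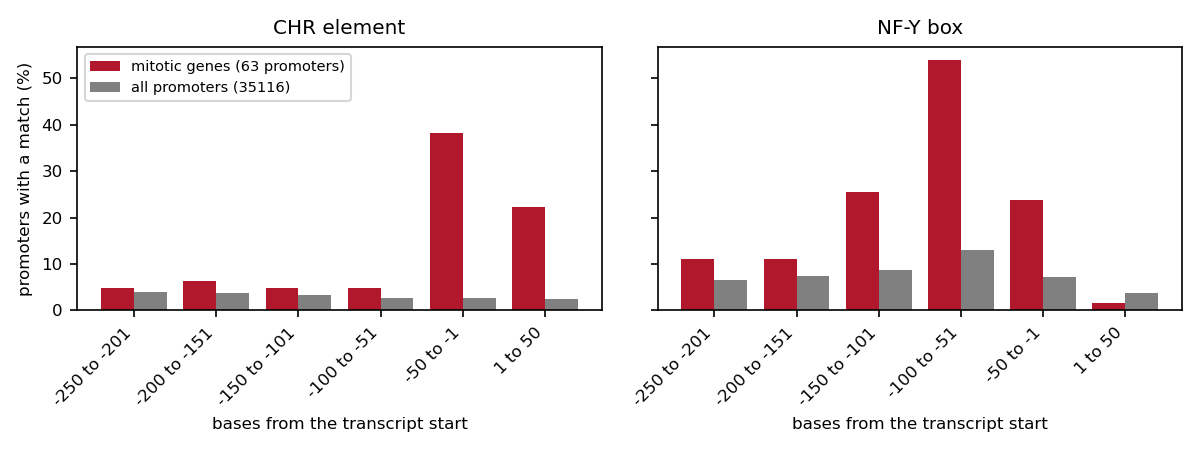
Share of promoters with a match (%) in windows of 50 bases along the promoter, for the CHR element and the NF-Y (CCAAT) box, on either strand. Red bars are the 63 promoters of mitotic genes and grey bars all 35116 promoters; the tallest red bars are 38.1% just before the start for the CHR element and 54.0% at 100 to 51 bases before it for the CCAAT box.

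The OPM2 CD24+ array stood apart from the other 5. Its median intensity was 135, against 72.2 in OPM2 CD24- cells and 68.9 to 84.0 in the other lines, and its spike-in controls had a geometric mean of 37362, against 6175 to 7399 elsewhere. The ratio of ACTB signal at the 3′ end to that at the 5′ end, which grows as RNA or its copies shorten, was 2.63 in CD24+ and 2.47 in CD24- cells for ARP1, 9.36 and 23.2 for OCI-MY5, and 27.1 and 7.54 for OPM2. All 9 plasma cell markers looked up, such as CD38 (529 to 1389) and XBP1 (12726 to 28605), exceeded the highest value of the TrpnX controls, bacterial probe sets that should find no target, which was 96.4. Markers of other cell types were mostly low but not absent. Of the markers with a probe set, 3 of 4 for B cells, 3 of 6 for T and NK cells, 3 of 5 for myeloid cells, 1 of 2 for erythroid cells and all 5 for stroma exceeded that value on at least 1 array, and only COL1A1 of stroma (181 to 369) did on all 6. CD3D and CD3G of T cells and CD14 and CD163 of myeloid cells did not on any array, while CD3E reached 129, CSF1R 162, PAX5 of B cells 421, HBB of red cells 2298 and GNLY of cytotoxic cells 6859. The summed intensities ran from 460 to 679 in CD24+ and 168 to 584 in CD24- cells for B cells, from 175 to 5504 and 120 to 7092 for T and NK cells, and from 88.9 to 577 and 159 to 182 for myeloid cells. They ran from 85.0 to 2385 and 195 to 1796 for erythroid cells, and from 337 to 603 and 479 to 603 for stroma. Their part in the results was not tested. The brightest CD24 probe set ran from 3.35 to 99.2, below the brightness limit, and gave no check of the sort.

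The first comparison asked how CD24+ cells differ from CD24- cells, and no mitotic gene passed the test. In ARP1 nearly the whole list was higher in CD24+ cells, with CDK1 2.56-fold by its brightest probe set, UBE2C 1.98-fold and KIF20A 1.92-fold higher. In OPM2 most of it was higher, with CDCA3 2.29-fold higher by its brightest probe set, and in OCI-MY5 the list was divided about evenly. In bulk RNA a larger share of cells in mitosis and more transcript per cell cannot be told apart. Each difference is the CD24+ value minus the CD24- value after log2(intensity + 16), which makes changes of dim genes look smaller, and fold values are ratios of intensity + 16. Limma called 0 of 12078 genes and 0 of the 57 mitotic genes at an adjusted p below 0.05 (0% of all genes), and the same 0 with the cell line as a block. At an unadjusted p below 0.05 it marked 136 genes higher (1.13%) and 13 lower (0.108%), or 466 (3.86%) and 94 (0.778%) with the block, and none of these was a mitotic gene. The lowest adjusted p of a mitotic gene was 0.847, with the block. The mean difference over the 3 lines had a median of 0.23 over the mitotic genes, against 0.03 over all genes tested. Over ARP1 and OCI-MY5 alone it was 0.19, or 0.17 relative to all genes, against 0.20 relative to all genes with every line.

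Counted by sign, 23 of the 57 genes were higher in CD24+ cells in all 3 lines (16.9% of all genes tested were) and 0 were lower in all 3 (12.2%), counts that became 1 and 3 when each array was centred on its median. A further 19 were higher in ARP1 and OPM2 and lower in OCI-MY5, 7 were lower in OPM2 alone, and 6 were higher in ARP1 alone. PLK1 was lower in ARP1 alone, and ECT2 was higher in OPM2 alone. The 3 CD24+ values exceeded all 3 CD24- values in 1 mitotic gene, CENPE (3.17% of all genes tested), and the reverse held for 0 (1.15%).

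**Figure D2:**
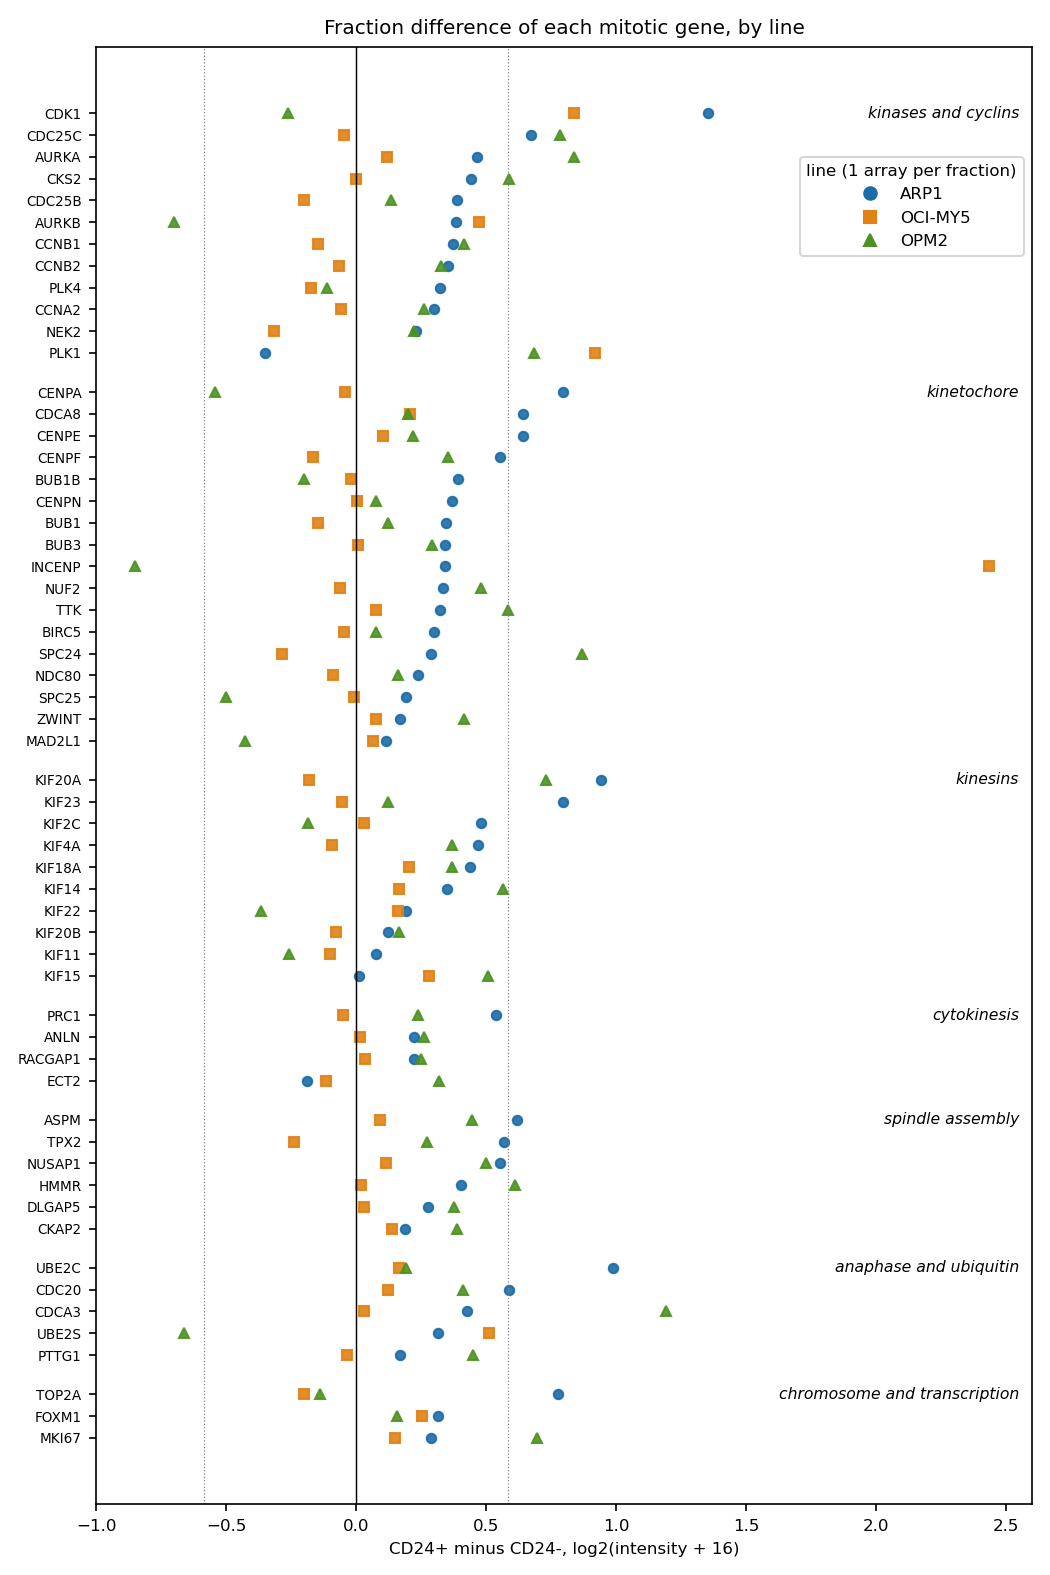
CD24+ minus CD24- difference of every mitotic gene, on the log2(intensity + 16) scale, by role and ordered by the value in ARP1. Each symbol is 1 line with 1 array per fraction, and the dotted lines stand at 1.5-fold; ARP1 symbols lie right of 0 for 55 of 57 genes, OPM2 symbols for 44 and OCI-MY5 symbols for 31.

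Among the 12 kinases, cyclins and partners, 11 were higher in CD24+ cells in ARP1, 9 in OPM2 and 5 in OCI-MY5, and the median of their mean differences was 0.21. AURKA, the Aurora kinase of centrosomes and spindle poles, had intensities of 4415, 3884 and 7154 in the CD24+ fractions of ARP1, OCI-MY5 and OPM2, against 3193, 3574 and 3996 in their CD24- cells. It was higher in every line, by 0.47 ± 0.36 (SD, n = 3 lines), and its highest CD24- value, in OPM2, exceeded its lowest CD24+ value. CKS2, a small subunit bound by CDK1, read 16150, 15142 and 32947 in CD24+ cells, against 11879, 15140 and 21915 in CD24- cells. Its OCI-MY5 arrays were level, its groups overlapped, and its mean difference was 0.34 ± 0.31.

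CDK1, the kinase that starts mitosis, read 11578, 13735 and 8349 in the CD24+ fractions of ARP1, OCI-MY5 and OPM2, against 4518, 7673 and 10003 in CD24- cells. It was higher in ARP1 and OCI-MY5 and lower in OPM2, which left a mean of 0.64 ± 0.82. Its other 3 probe sets gave 0.74, 0.82 and -0.41 in ARP1. In OCI-MY5 they gave 0.17, 0.15 and 0.18, and in OPM2 -0.60, -0.51 and 0.10. CCNB1, cyclin B1, read 13456, 11286 and 10574 in CD24+ cells, against 10391, 12494 and 7921 in CD24- cells. OCI-MY5 was the line in which it was lower, and its mean was 0.21 ± 0.31. PLK1, the Polo-like kinase that acts from mitotic entry to cytokinesis, was dim, at 246, 278 and 727 in CD24+ cells, against 317, 139 and 446 in CD24- cells. It was lower in ARP1 and higher in the other lines, by 0.42 ± 0.68 on average. AURKB, the kinase of the chromosomal passenger complex, was lower in OPM2 by over 1.5-fold, at 668 in CD24+ cells against 1096 in CD24- cells, and higher in the other lines. Its other tested probe set went the opposite way in OPM2, at 548 in CD24+ cells against 139 in CD24- cells, a difference of 1.86, and in OCI-MY5, with a difference of -0.27.

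All 17 kinetochore, checkpoint and passenger genes were higher in CD24+ cells of ARP1, 12 in OPM2 and 8 in OCI-MY5, with a median mean difference of 0.21. CDCA8, the borealin subunit of the passenger complex, read 2652, 1905 and 2246 in the CD24+ fractions of ARP1, OCI-MY5 and OPM2, against 1694, 1647 and 1952 in CD24- cells. It was higher in every line, by 0.35 ± 0.25, although the OCI-MY5 CD24+ value lay under the OPM2 CD24- value. TTK, the checkpoint kinase also called MPS1, read 1544, 1342 and 3187 in CD24+ cells, against 1232, 1273 and 2122 in CD24- cells. The groups overlapped, the OPM2 difference was the largest, and the mean was 0.33 ± 0.25. CENPE, a kinetochore motor that moves chromosomes to the spindle equator, read 2075, 1565 and 1822 in CD24+ cells, against 1325, 1456 and 1562 in CD24- cells. Its groups were separated by a narrow margin, between OCI-MY5 CD24+ and OPM2 CD24- cells, and its mean was 0.32 ± 0.28.

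INCENP, the scaffold of the passenger complex, had both the highest difference in OCI-MY5 (2.43) and the lowest in OPM2 (-0.85). Its intensities were 408, 226 and 41.6 in the CD24+ fractions of ARP1, OCI-MY5 and OPM2, against 319, 28.8 and 87.7 in CD24- cells. The OCI-MY5 CD24- value and both OPM2 values were no higher than the brightest TrpnX control. Those differences are between values near background. CENPA, the centromeric histone variant, read 2102, 881 and 423 in CD24+ cells, against 1205, 909 and 623 in CD24- cells, higher in ARP1 alone. SPC24, a subunit of the NDC80 complex, read 1007, 1113 and 2081 in CD24+ cells, against 823, 1359 and 1132 in CD24- cells, lower in OCI-MY5 alone.

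All 10 kinesins, the motors and microtubule regulators of the spindle, were higher in CD24+ cells of ARP1, 7 in OPM2 and 5 in OCI-MY5, with a median mean difference of 0.26. KIF14, which works in cytokinesis, read 3053, 2492 and 4724 in the CD24+ fractions of ARP1, OCI-MY5 and OPM2, against 2395, 2221 and 3188 in CD24- cells. It was higher in every line, by 0.36 ± 0.20, and the groups overlapped. KIF18A, which damps chromosome movements at metaphase, read 794, 1078 and 1133 in CD24+ cells, against 582, 935 and 875 in CD24- cells. Its differences of 0.44, 0.20 and 0.37 were among the most even over the lines, with a mean of 0.34 ± 0.12, and its ARP1 CD24+ value lay under the CD24- values of the other lines. KIF15, a motor that helps keep spindle poles apart, read 582, 867 and 764 in CD24+ cells, against 577, 710 and 532 in CD24- cells. It was level in ARP1 and higher in the other lines, by 0.27 ± 0.25 on average. KIF20A, the motor that carries the passenger complex to the central spindle, read 3958, 2501 and 1968 in CD24+ cells, against 2050, 2834 and 1180 in CD24- cells. It was over 1.5-fold higher in ARP1 and OPM2 and lower in OCI-MY5.

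Of the 4 cytokinesis genes, 3 were higher in CD24+ cells of ARP1, all 4 in OPM2 and 2 in OCI-MY5. RACGAP1, a subunit of centralspindlin, read 6136, 5268 and 7583 in the CD24+ fractions of ARP1, OCI-MY5 and OPM2, against 5252, 5145 and 6374 in CD24- cells. It was higher in every line, by 0.17 ± 0.12, with overlapping groups. ANLN, the anillin scaffold of the contractile ring, read 2801, 2273 and 3509 in CD24+ cells, against 2396, 2250 and 2929 in CD24- cells. Its difference was 0.17 ± 0.13, but its second probe set gave -0.89 in OPM2. ECT2, the exchange factor that activates RhoA for the ring, read 3565, 4093 and 2988 in CD24+ cells, against 4068, 4436 and 2392 in CD24- cells. It was 1 of the 2 mitotic genes that were lower in ARP1.

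The 6 spindle assembly genes were all higher in CD24+ cells of ARP1 and OPM2, and 5 were in OCI-MY5. NUSAP1, a protein that bundles spindle microtubules, read 10986, 12403 and 11274 in the CD24+ fractions of ARP1, OCI-MY5 and OPM2, against 7487, 11448 and 7963 in CD24- cells. Its OCI-MY5 CD24- value was the exception to a separation of the groups. The other tested NUSAP1 probe set was higher in ARP1, by 0.87, but lower in OCI-MY5 and OPM2, by -0.49 and -0.88. All 5 anaphase and ubiquitin genes were higher in ARP1, 4 in OPM2 and 4 in OCI-MY5. UBE2C, the conjugating enzyme of the anaphase-promoting complex, read 15472, 9549 and 5983 in CD24+ cells, against 7798, 8515 and 5236 in CD24- cells. Its ARP1 difference was 0.99, against 0.17 in OCI-MY5 and 0.19 in OPM2. CDCA3, an F-box-like protein that marks the mitotic inhibitor WEE1 for destruction, read 5881, 4290 and 8466 in CD24+ cells, against 4377, 4195 and 3692 in CD24- cells. It was higher in every line, by 0.55 ± 0.59, most in OPM2, and the OCI-MY5 CD24+ value lay under the ARP1 CD24- value. Its other tested probe set differed by 0.11 in OPM2, at 1930 in CD24+ cells against 1782 in CD24- cells. UBE2S, the enzyme that extends the ubiquitin chains, was lower in OPM2 by over 1.5-fold, at 10687 in CD24+ cells against 16901 in CD24- cells.

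MKI67, the surface layer of mitotic chromosomes used as the Ki-67 proliferation marker, read 1747, 1329 and 3312 in the CD24+ fractions of ARP1, OCI-MY5 and OPM2, against 1427, 1197 and 2039 in CD24- cells. Of its 4 probe sets, all were higher in OCI-MY5 as in ARP1, and 3 in OPM2. FOXM1, the transcription factor of G2 and mitosis, read 3703, 1893 and 1722 in CD24+ cells, against 2975, 1586 and 1544 in CD24- cells. It differed by 0.24 ± 0.08, the smallest SD of the named genes, while its levels differed far more between the lines than between the fractions. TOP2A, the topoisomerase that untangles sister chromatids, read 15144, 7429 and 5974 in CD24+ cells, against 8838, 8531 and 6581 in CD24- cells. By this probe set it was higher in ARP1 alone. The other tested TOP2A probe sets gave 0.71 and 0.74 in ARP1, -0.11 and 0.17 in OCI-MY5, and 0.13 and 1.38 in OPM2.

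Within lines, where each difference rests on 1 array against 1 and has no test, the list lay furthest from all genes in ARP1 with the deposited scaling, and in OPM2 with quantile normalization. In ARP1 55 of 57 mitotic genes were higher in CD24+ cells (51.4% of all genes were), with a median of 0.35, against 0.01 for all genes, and quartiles of 0.24 and 0.54. At least 1.5-fold higher were 11 (6.99% of all genes) and lower 0 (6.65%). In OCI-MY5 31 were higher (54% of all genes), with a median of 0.01, against 0.03, and quartiles of -0.08 and 0.12. CDK1, PLK1 and INCENP, 3 genes (10.1% of all genes), were at least 1.5-fold higher and 0 lower (5.32%). The other 3 CDK1 probe sets differed by 0.15 to 0.18 in OCI-MY5, under that limit. In OPM2 44 were higher (53.8% of all genes), with a median of 0.26, against 0.06, and 9 (23.2%) were at least 1.5-fold higher. AURKB, INCENP and UBE2S, 3 genes (13%), were at least 1.5-fold lower there. The ARP1 difference exceeded the OCI-MY5 difference in 51 of the 57 genes and the OPM2 difference in 36.

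**Figure D3:**
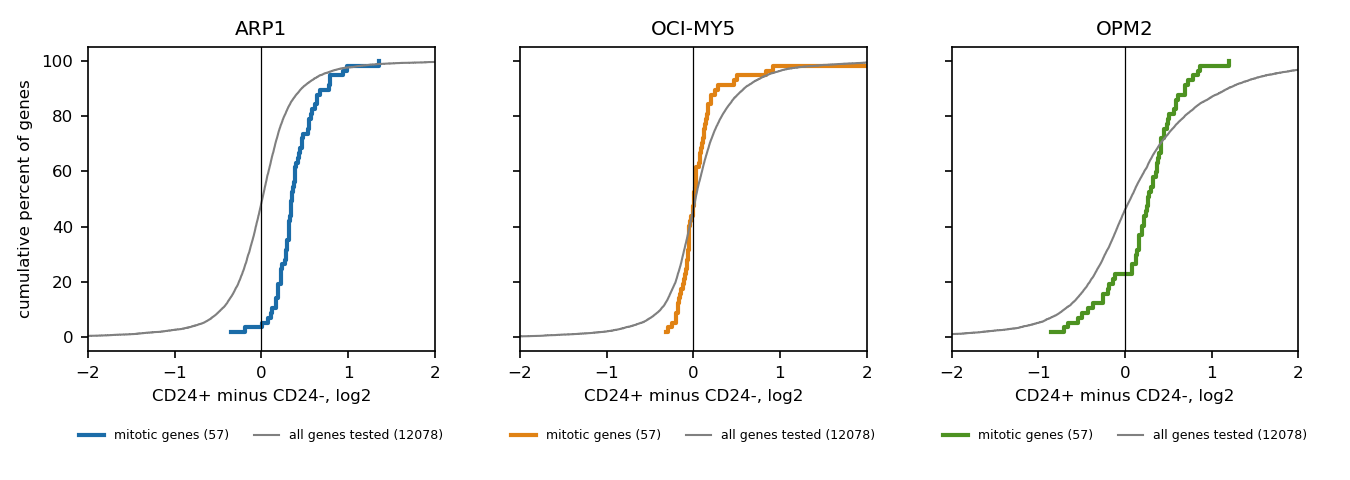
Cumulative percent of genes by CD24+ minus CD24- difference (log2) in each line, coloured for the 57 mitotic genes and grey for all 12078 genes tested. The coloured curve lies to the right of the grey one in ARP1 (medians 0.35 and 0.01), crosses it near 0 in OCI-MY5 (0.01 and 0.03), and is steeper than it in OPM2 (0.26 and 0.06); values beyond 2 are outside the axis.

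The direction in OPM2 depended on scaling. With each array centred on its own median, 4 of 57 mitotic genes were higher in OPM2 CD24+ cells, against 52 for ARP1 and 18 for OCI-MY5, and the medians of all genes were then -0.72, -0.11 and -0.07. With quantile normalization the counts were 44, 55 and 34. The median of the mitotic genes relative to all genes was 0.20 in OPM2 with the deposited scaling and 0.39 with quantile normalization. In ARP1 it was 0.34 with either, and in OCI-MY5 it was -0.02 and 0.04. Centring shifts all genes of an array alike, so it cannot change this relative median. In OPM2 the relative median was 0.07 without the filter on dim genes and 0.33 with the 75th percentile filter. Among the named genes, centring put the mean differences of TTK, CENPE, KIF15, RACGAP1, ANLN, CCNB1 and FOXM1 below 0, at -0.17 to -0.0049. Over ARP1 and OCI-MY5 alone, which leaves out both OPM2 arrays, the mean difference was 0.29 for AURKA, 0.22 for CKS2, 0.20 for TTK, 0.26 for KIF14, 0.23 for CDCA3, 0.22 for MKI67 and 0.28 for PLK1. ARP1 had nearly equal ACTB ratios in its fractions, 2.63 in CD24+ and 2.47 in CD24- cells. The OPM2 CD24+ array had the higher ratio of its line and OCI-MY5 CD24+ the lower of its line. Their part in the results of these lines was not tested.

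Every probe set taken on its own gave the same order of lines. Of the 101 tested probe sets of mitotic genes, 92 were higher in CD24+ cells of ARP1, 70 in OPM2 and 56 in OCI-MY5, with medians of 0.35, 0.20 and 0.02. Among all probe sets tested, 49.9%, 52.3% and 51.8% were higher. Of the 29 genes with several tested probe sets, 21 had all of them higher in ARP1, 10 in OPM2 and 7 in OCI-MY5. Probe sets of opposite sign occurred in 8 of these genes in ARP1, 19 in OPM2 and 17 in OCI-MY5.

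Mitotic genes were mostly higher in ARP1 CD24+ cells with or without the promoter elements, and other genes that hold the elements were not. The 32 mitotic genes with both a CHR element and a CCAAT box had a median difference of 0.40 in ARP1, with 30 higher in CD24+ cells, and the 11 without a CHR element had 0.32, with all 11 higher. Of the 627 other tested genes with both elements, 50.9% were higher in ARP1, and of the 4858 with neither, 51.4% were. Of the promoters printed above, all with a CHR element, those of CKS2, CDCA8, KIF14 and KIF18A also hold a CCAAT box, and these genes differed by 0.44, 0.64, 0.35 and 0.44 in ARP1. ANLN and KIF15, with no CCAAT box in the stretch shown, differed by 0.22 and 0.01. The printed genes were picked by their fraction differences, so these values cannot show whether the box goes with the difference. Mitotic genes with neither element, 3 in number, had a median of 0.48 in ARP1, and all 3 were higher.

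Other lists of the cell division pathway had a range of counts. No gene of any of the 8 lists passed the test between fractions. The counts below are with the deposited scaling, under which 51.4% of all genes tested were higher in ARP1, 53.8% in OPM2 and 54% in OCI-MY5. Centrosome and spindle assembly factors were higher in CD24+ cells in 20 of 23 genes in ARP1, 15 in OPM2 and 12 in OCI-MY5, with ARP1 and OPM2 medians of 0.24 and 0.14. In the same order of lines, regulators of mitotic entry had 10, 8 and 4 of 14 higher, and condensin subunits, which compact chromosomes, 7, 2 and 4 of 8. Other centromere and kinetochore proteins had 18, 15 and 13 of 27 higher. DREAM and B-Myb regulators had 11, 9 and 11 of 17, and cohesin and separase genes 7, 4 and 6 of 13. Genes of the anaphase-promoting complex, its inhibitor FBXO5 included, had 10, 8 and 7 of 15. Of the G1/S and replication genes, 10, 11 and 11 of 29 were higher, with medians of -0.06, -0.28 and -0.02. Of those 29, 10 were lower in CD24+ cells in all 3 lines (12.2% of all genes tested) and 3 higher in all 3 (16.9%).

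The second comparison set the lines against each other, with both fractions of a line serving as its 2 samples. No label says that they came from repeated cultures, so the p-values measure the spread between the fractions of a line, which may be technical. Most mitotic genes did not pass this test. CDC25B and NUF2 were higher in OPM2 than in either other line, ZWINT was lower in ARP1 than in either other line, and CENPA and FOXM1 were lower in OPM2 than in ARP1. In OPM2 minus ARP1, 4 mitotic genes passed as higher (10.1% of all genes did) and 2 as lower (14.8%). In OPM2 minus OCI-MY5, 6 passed as higher (11.4%) and 3 as lower (14.7%). In ARP1 minus OCI-MY5, 0 passed as higher (1.78%) and 1 as lower (0.836%). By sign alone, 31, 26 and 32 of the 57 were higher in the 3 contrasts, against 48.4%, 49.9% and 52.8% of all genes.

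**Figure D4:**
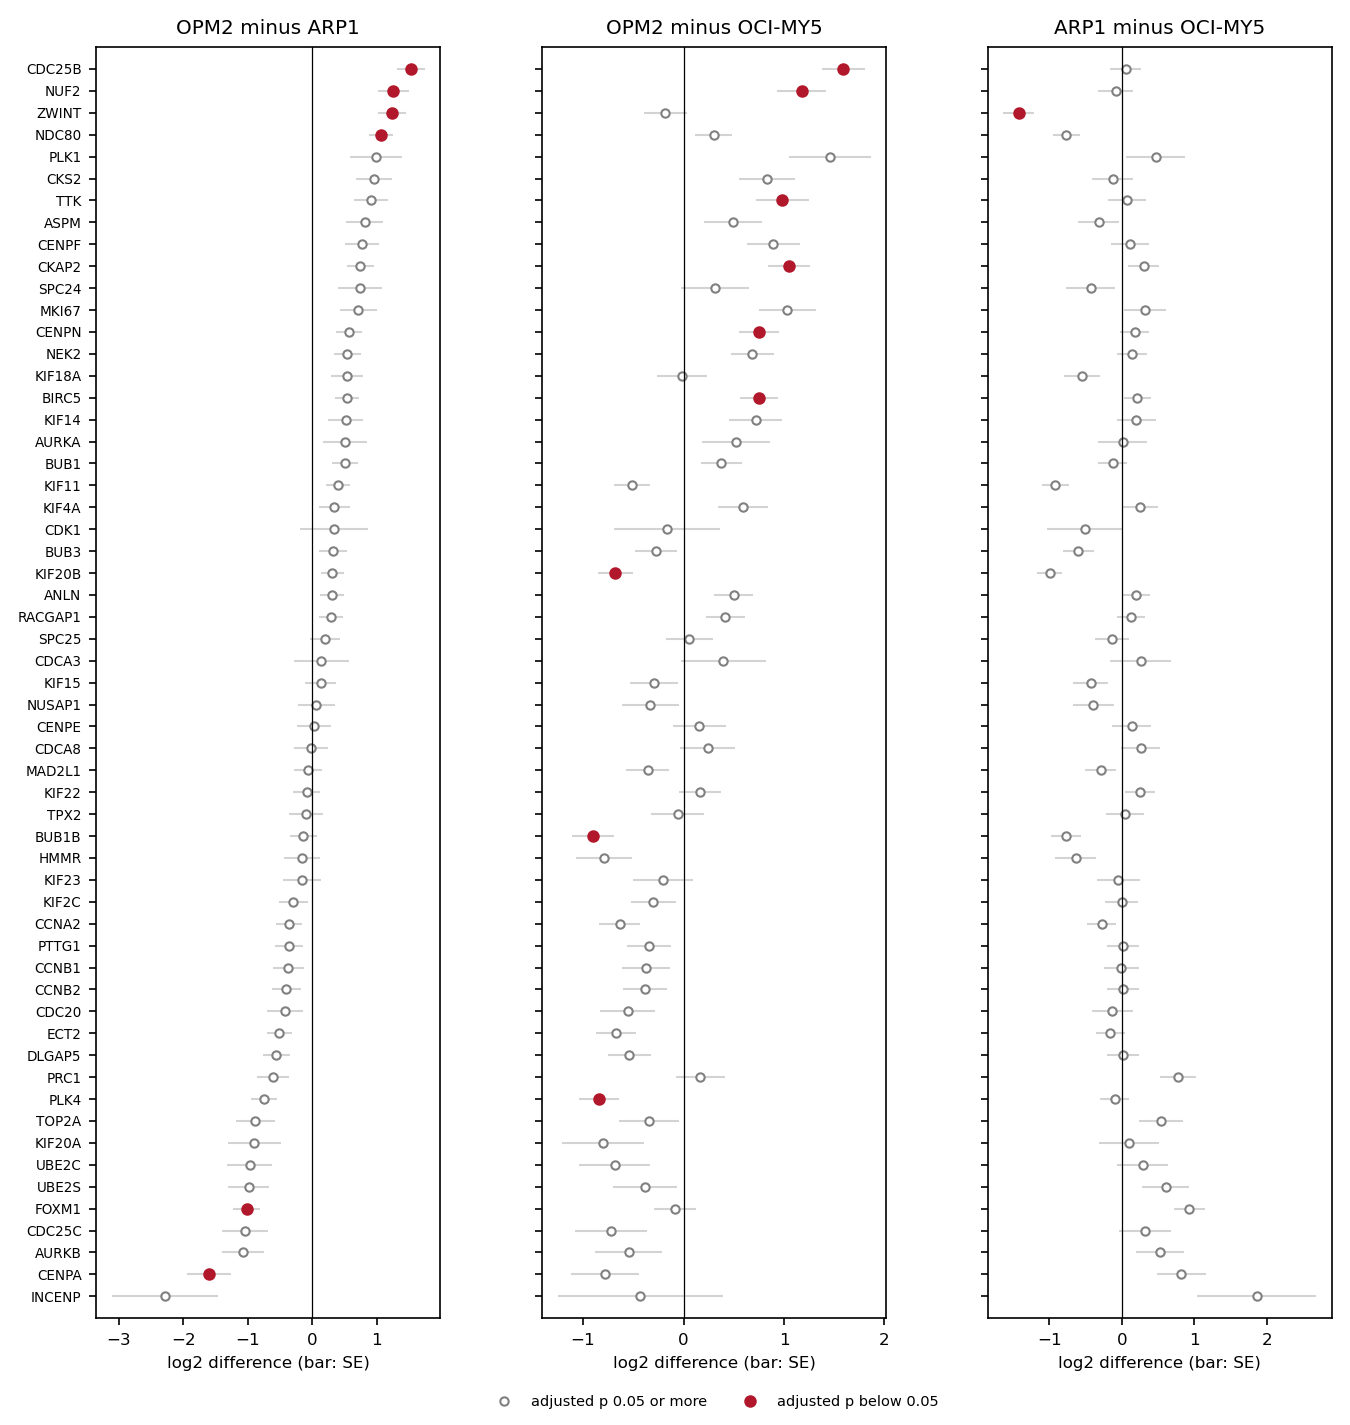
Differences between lines for the 57 mitotic genes, log2 difference with its SE, in OPM2 minus ARP1, OPM2 minus OCI-MY5 and ARP1 minus OCI-MY5, 2 arrays per line. Genes are ordered by OPM2 minus ARP1, and filled points passed limma's adjusted threshold of 0.05; there are 6, 9 and 1 of them, and the 3 axes have different ranges.

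CDC25B, a phosphatase that activates CDK1, had the largest difference of either sign that passed in OPM2 minus OCI-MY5. It read 7866 in CD24+ and 7157 in CD24- cells of OPM2, against 2956 and 2256 in ARP1 and 2318 and 2665 in OCI-MY5. Both OPM2 arrays exceeded every array of the other lines. The differences were 1.53 ± 0.21 from ARP1 (SE; limma adjusted p = 0.00930) and 1.59 ± 0.21 from OCI-MY5 (limma adjusted p = 0.00774). PLK4, the kinase that licenses centriole duplication, read 931 and 1009 in CD24+ and CD24- cells of OPM2, against 1831 and 1461 in ARP1 and 1646 and 1857 in OCI-MY5. It was lower in OPM2 than in OCI-MY5 by a difference of -0.84 ± 0.20 (limma adjusted p = 0.0359; 0.0697 without the OPM2 CD24+ array, and 0.00801 to 0.185 over all settings). Its difference from ARP1 just missed the threshold (limma adjusted p = 0.0502).

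At the outer kinetochore, NUF2 and NDC80 form the complex that grips microtubules. NUF2 read 10215 in CD24+ and 7318 in CD24- cells of OPM2, against 4051 and 3206 in ARP1 and 3738 and 3901 in OCI-MY5. Both OPM2 arrays lay above all others, with differences of 1.26 ± 0.24 from ARP1 (limma adjusted p = 0.0217) and 1.18 ± 0.24 from OCI-MY5 (limma adjusted p = 0.0252). NDC80 read 4488 and 4015 in OPM2, against 2191 and 1858 in ARP1 and 3338 and 3547 in OCI-MY5. It was also higher than in ARP1, by 1.07 ± 0.18 (limma adjusted p = 0.0162), and did not pass against OCI-MY5. SPC24 and SPC25, the other subunits of the complex, passed in neither contrast.

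ZWINT, which links the KNL1 scaffold of the kinetochore to the checkpoint, read 14942 in CD24+ and 11214 in CD24- cells of OPM2, against 5814 and 5171 in ARP1 and 15089 and 14302 in OCI-MY5. Both ARP1 arrays lay under all others. The differences were 1.24 ± 0.21 for OPM2 minus ARP1 (limma adjusted p = 0.0161) and -1.42 ± 0.21 for ARP1 minus OCI-MY5 (limma adjusted p = 0.0461). CENPA read 423 and 623 in CD24+ and CD24- cells of OPM2, against 2102 and 1205 in ARP1 and 881 and 909 in OCI-MY5. Both OPM2 arrays were lower than every other array, by a difference of -1.60 ± 0.34 from ARP1 (limma adjusted p = 0.0274; 0.0646 without the OPM2 CD24+ array, and 0.00337 to 0.121 over all settings). BUB1B, the checkpoint protein BUBR1, read 4182 and 4812 in OPM2, against 5647 and 4303 in ARP1 and 8336 and 8461 in OCI-MY5. It was lower in OPM2 than in OCI-MY5, by -0.90 ± 0.21 (limma adjusted p = 0.0344; 0.0712 without the OPM2 CD24+ array, and 0.00368 to 0.160 over all settings). TTK, CENPN of the inner centromere and BIRC5, the survivin subunit of the passenger complex, also passed as higher in OPM2 than in OCI-MY5, by 0.75 to 0.98.

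CKAP2, a protein that stabilises spindle microtubules, read 9986 in CD24+ and 7630 in CD24- cells of OPM2, against 5551 and 4871 in ARP1 and 4419 and 4010 in OCI-MY5. Both OPM2 arrays lay above all others, and the difference from OCI-MY5 was 1.05 ± 0.21 (limma adjusted p = 0.0239). KIF20B, a kinesin of late cytokinesis, read 1455 and 1295 in OPM2, against 1149 and 1056 in ARP1 and 2151 and 2269 in OCI-MY5. The OCI-MY5 arrays were the high ones, and the difference of OPM2 from them was -0.68 ± 0.17 (limma adjusted p = 0.0436). FOXM1 read 1722 and 1544 in OPM2, against 3703 and 2975 in ARP1 and 1893 and 1586 in OCI-MY5. Both ARP1 arrays lay above all others, and OPM2 minus ARP1 was -1.02 ± 0.21 (limma adjusted p = 0.0254).

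These calls rested on few arrays. In OPM2 minus ARP1, OPM2 minus OCI-MY5 and ARP1 minus OCI-MY5, 6, 9 and 1 of 57 mitotic genes passed, beside 25%, 26.1% and 2.62% of all genes. Without the ARP1 CD24+ array the counts were 1, 1 and 0 (5.71%, 14.4% and 0% of all genes), and without the ARP1 CD24- array 0, 1 and 0 (5.63%, 14.5% and 0%). Without the OCI-MY5 CD24+ array they were 3, 0 and 0 (13.9%, 8.27% and 0%), and without the OCI-MY5 CD24- array 3, 0 and 0 (13.7%, 7.9% and 0%). Without the OPM2 CD24+ array they were 6, 6 and 3 (27.2%, 26.9% and 9.75%), and without the OPM2 CD24- array 13, 13 and 3 (34.9%, 37.8% and 9.45%). The mitotic share was below that of all genes in each of these cases with a call. With every array and an intensity trend in the variance it was above that share, at 45.6%, 36.8% and 12.3% against 33.5%, 33.2% and 11.4%. CDC25B passed in 14 of 16 settings against ARP1 (limma adjusted p 0.000298 to 0.0690) and in 13 of 16 against OCI-MY5 (0.000217 to 0.0681). NUF2 passed in 10 of 16 in each contrast (limma adjusted p 0.00141 to 0.129 and 0.00189 to 0.188), and ZWINT in 12 in OPM2 minus ARP1 (0.000787 to 0.117) and 6 in ARP1 minus OCI-MY5 (0.00219 to 0.281). FOXM1 passed in 10 (limma adjusted p 0.00279 to 0.144), CKAP2 in 9 (0.00176 to 0.686) and KIF20B in 6 (0.0131 to 0.540). CENPA passed in 9, BUB1B in 8 and PLK4 in 7.

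Probe sets of a gene did not always agree in these contrasts. The other tested probe sets of CKAP2 gave 0.82 and -1.34 for OPM2 minus OCI-MY5, where it passed, against 1.05 for the one used. For OPM2 minus ARP1 they gave 0.57 and -2.35, against 0.75. In OPM2 minus OCI-MY5 another KIF20B probe set gave 1.38, against -0.68, and the other 3 of BIRC5 gave -0.32, 0.16 and 0.22, against 0.75. A second probe set of CENPN gave 1.55 in the same contrast. With every probe set tested on its own, 11 of the 101 passed in OPM2 minus ARP1, 6 higher and 5 lower (18% of all probe sets passed). In OPM2 minus OCI-MY5, 5 were higher and 1, of HMMR, lower (18.4%), and in ARP1 minus OCI-MY5 1 was higher, of BUB1 (0.606%). The probe sets used above for BUB1B, PLK4, KIF20B, TTK, CENPN and BIRC5 no longer passed in OPM2 minus OCI-MY5 (limma adjusted p 0.0519 to 0.0713). ZWINT no longer passed in ARP1 minus OCI-MY5 (limma adjusted p = 0.0687). Those that had passed in OPM2 minus ARP1 passed again.

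Genes of the surrounding pathway differed between lines in both directions. Of the 14 regulators of mitotic entry, 5 passed as higher in OPM2 than in ARP1, 4 as higher than in OCI-MY5, and 0 as lower in either. Over all genes 10.1% passed as higher and 14.8% as lower against ARP1, and 11.4% and 14.7% against OCI-MY5, and the counts of the small lists here can be read only against these shares. WEE1, the kinase that holds CDK1 inactive, was higher in OPM2 than in ARP1 by 1.53, and PPP2R2A, a regulatory subunit of the phosphatase that opposes CDK1, by 1.62, and by 1.67 against OCI-MY5. Of the 15 anaphase-promoting complex genes, 2 passed as higher and 2 as lower against ARP1, and 0 as higher and 4 as lower against OCI-MY5, where all genes gave the shares of 10.1%, 14.8%, 11.4% and 14.7%. The subunit CDC23 was lower in OPM2 by -1.07 and -1.52 from ARP1 and OCI-MY5, and FBXO5, an inhibitor of the complex, was higher by 1.20 than in ARP1. STIL, needed for centriole duplication, was higher in OPM2 by 1.80 and 1.58 and was the 1 of 23 centrosome and spindle factors that passed as higher in each contrast. SPAG5, the spindle protein astrin, was lower by -1.29 from ARP1.

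Among 27 other centromere and kinetochore proteins, 1 passed as higher and 2 as lower in OPM2 against ARP1, and 3 and 1 against OCI-MY5, no more than the shares of all genes (10.1% and 14.8%, and 11.4% and 14.7%). MAD1L1, which holds MAD2 at unattached kinetochores, was lower by -1.99 from ARP1, and CENPL was higher by 1.35 and 1.16. Of 17 DREAM and B-Myb regulators, 3 passed as higher and 1 as lower against ARP1, and 2 and 1 against OCI-MY5, beside the same shares of all genes. RBL1, the pocket protein p107 of DREAM, was higher by 1.03 and 1.68, and NFYA, a subunit of the NF-Y factor that binds CCAAT boxes, lower by -1.33 and -1.34. Cohesin and separase genes had 1 of 13 higher in each contrast, the cohesin loader NIPBL, by 1.46 against ARP1. Of 8 condensin genes, NCAPG was higher by 1.27 and NCAPD2 lower by -0.75 against ARP1. In the list of G1/S and replication genes 5 of 29 passed as higher and 3 as lower against ARP1, and 1 and 3 against OCI-MY5, beside 10.1% and 14.8%, and 11.4% and 14.7%, of all genes. RRM2, the small subunit of ribonucleotide reductase, was lower by -1.74 and -1.72. All of these passed at a limma adjusted p below 0.05.

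Mitotic genes lie on 21 chromosomes, with the arms of chromosome 1 counted apart. In OPM2 minus ARP1 the median of the mitotic genes had the sign of the median of all tested genes there on 13 and the opposite sign on 8, in OPM2 minus OCI-MY5 on 16 and 5, and in ARP1 minus OCI-MY5 on 15 and 6. On chromosome 11, for example, the median was 0.31 over all genes and -0.87 over INCENP and KIF18A in OPM2 minus ARP1. That opposite sign came from INCENP alone, at -2.29 and near background in OPM2, while KIF18A was at 0.54. The chromosomes described next were chosen after the values were seen and are given without a test. On the long arm of chromosome 1 the median of 551 genes was 0.36 in OPM2 minus ARP1, against -0.04 over all genes. By their brightest probe sets the 5 mitotic genes there, ASPM, CENPF, KIF14, NEK2 and NUF2, were all higher in OPM2, with a median of 0.78. In OPM2 minus OCI-MY5 the arm's median was 0.43 and all 5 were higher again, with a median of 0.72. The other tested NEK2 probe set was lower in OPM2, by -1.32 from ARP1 and -0.44 from OCI-MY5. On the short arm the medians of 653 genes were -0.06 and -0.18, and CDC20, CDCA8 and KIF2C had medians of -0.30 and -0.30. With CD24- arrays alone, 2 of these 3 were higher in OPM2 than in ARP1, with a median of 0.04, and their median against OCI-MY5 was -0.19.

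On chromosome 5 the median of 554 genes was -0.52 in OPM2 minus ARP1 and -0.50 in OPM2 minus OCI-MY5. CCNB1, CDC25C, HMMR, KIF20A and PTTG1 lie there, and 0 of the 5 was higher in OPM2 in either contrast, with medians of -0.37 and -0.72. Chromosome 10 holds BUB3, CDK1, KIF11, KIF20B, MKI67 and ZWINT. Its 467 genes had a median of -0.42 in ARP1 minus OCI-MY5. By their brightest probe sets 5 of the 6 mitotic genes were lower in ARP1, MKI67 being the exception. Another KIF20B probe set gave 1.58 in that contrast, and another of MKI67 -0.89. In OPM2 minus ARP1 the median of chromosome 10 was 0.24, and all 6 were higher in OPM2 by their brightest probe sets. Other probe sets gave -0.39 and -0.13 for BUB3, -0.20 for KIF20B and -0.08 for MKI67. The remaining tested probe sets of these genes were above 0. With CD24- arrays alone, which leaves out the OPM2 CD24+ array, the medians were 0.27 and 0.31 for the long arm of chromosome 1 and -0.61 and -0.51 for chromosome 5, in OPM2 minus ARP1 and OPM2 minus OCI-MY5. By their brightest probe sets the mitotic genes of both regions kept the direction given above in every case. DNA copy number was not measured in these files, and its part in the differences was not tested.

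**Figure D5:**
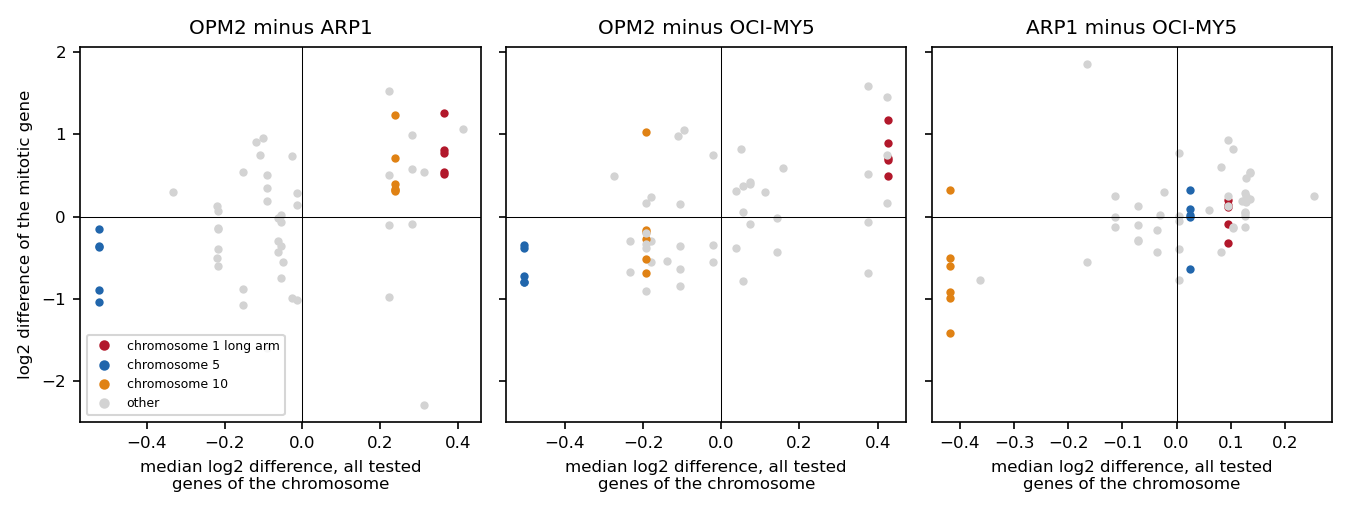
Each point is a mitotic gene, with its log2 difference between lines on the vertical axis and the median difference of all tested genes of its chromosome, or arm of chromosome 1, on the horizontal axis. The 5 genes of the long arm of chromosome 1 sit above 0 in both OPM2 contrasts, where their arm's median is 0.36 and 0.43, and the 5 genes of chromosome 5 sit below 0, where the median is -0.52 and -0.50.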

How the data were processed

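The data are 6 arrays, 1 for each fraction of ARP1, OCI-MY5 and OPM2, grouped by the cell line and CD24 status in their labels. Per the labels and the submitters' processing notes, the authors made the deposited intensity values with the MAS5 algorithm in Affymetrix Expression Console 1.1, and each array had a trimmed mean of 500.1. Probe sets were named from the platform annotation: 41091 had 1 gene symbol, 1801 several and 11721 none, and those with several were used for no gene. Scanner files and detection calls were not used here, so the number of arrays limits the precision.

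Values were taken as log2(intensity + 16), the brightest probe set stood for its gene, and genes whose mean reached 6.36 (the middle value over probe sets) entered the test. It was made in R 4.3.3 by limma 3.58.1, with Benjamini-Hochberg adjustment over all 12078 at 0.05. The fractions were compared without a block, and with the cell line as a block as an alternative. The fractions of a line are paired, as they come from the same line and their deviations correlated at 0.70, 0.71 and 0.77. The lines were compared with 2 arrays each, which left 3 residual degrees of freedom. Differences within a line have no test and were counted at 1.5-fold. The fit was tested on simulated data.

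The genes and lists were chosen with earlier results of these data known. Named genes were the 3 per role with the largest mean difference among those of 1 sign in all lines (the smaller roles as 1 group, fewer where fewer qualified), up to 3 per direction and contrast past the line test, CDK1, CCNB1, MKI67, PLK1 and FOXM1, and up to 2 per pathway list. AURKB, SPC24, INCENP, KIF20A, ECT2, UBE2S, TOP2A and NDC80 were added after their values were seen, as were the chromosomes. Alternatives were the pseudocount, filter, probe set rule, scaling, variance trend, blocks, fold limit and leaving out each array.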

Additional observations from a re-analysis of the deposited data

Results flagged for a closer look

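By their brightest probe sets, CDK1, CCNB1 and PLK1 each went one way in 1 line and the other way in the remaining lines. CD24+ minus CD24- was -0.26 for CDK1 in OPM2, -0.15 for CCNB1 in OCI-MY5 and -0.35 for PLK1 in ARP1, and above 0 in the other lines. The other tested CCNB1 probe set gave 0.14 in OCI-MY5. In OCI-MY5 the median differences of 4 roles were just below 0, at -0.052 for kinases and cyclins, -0.0071 for kinetochore genes, -0.012 for kinesins and -0.019 for cytokinesis genes, and above 0 in ARP1 and OPM2. Each fraction of a line is 1 array, so these differences between lines were not tested.

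A CENPA probe set that is also annotated to SLC35F6 was used in no comparison. Its lowest intensity over the arrays was 2707, in OPM2 CD24- cells, above the highest TrpnX control, and its signal cannot be assigned to either gene.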

How the results depend on the processing

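Of 265 recomputed values that answer a comparison, 192 stayed within set limits and 73 moved. A count stayed if it was equal, 0 against 0 included, or within 1.5-fold. The 192 therefore include the counts of genes called between fractions, and values that a setting cannot change, so they are no measure of robustness. A median stayed if it shifted by less than its SD over the lines, even where its sign changed. Between fractions, 0 genes passed in any setting. With both fractions of every line present, a cell line block cannot change the mean differences. The median of the mitotic genes was therefore 0.23 with the block too, or 0.20 relative to all genes (0.27 and 0.27 with quantile normalization). The block changed no call. Leaving out single arrays or lines gave 0.14 to 0.32, and 0.09 to 0.28 relative to all genes. With median centring it was -0.10, with or without the block. Centring also gave 1 gene higher and 3 lower in all lines, 6 at least 1.5-fold higher in ARP1 and 0 in OPM2, and 18 and 4 higher in OCI-MY5 and OPM2. The 75th percentile filter left 1 at 1.5-fold in OCI-MY5, quantile normalization moved the relative median of OPM2 to 0.39, and a 2-fold limit kept 1 gene in each line.

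Between lines, 3018, 3150 and 316 genes and 6, 9 and 1 mitotic genes passed in OPM2 minus ARP1, OPM2 minus OCI-MY5 and ARP1 minus OCI-MY5. Without a filter, 1430, 1640 and 0 genes passed, and 1, 1 and 0 mitotic ones. With the 75th percentile filter the mitotic counts were 19, 18 and 6, with an intensity trend 26, 21 and 7, and with centring 3, 0 and 0. With the filter these were 34.5%, 32.7% and 10.9% of the mitotic genes tested, against 42.2%, 41.7% and 16.8% of all genes. The trend gave 45.6%, 36.8% and 12.3%, above the 33.5%, 33.2% and 11.4% of all genes. Centring gave 5.26%, 0% and 0%, against 15.4%, 17.9% and 1.21%. All-gene counts were 1864 in OPM2 minus ARP1 with centring, and 1281, 1375 and 146 in ARP1 minus OCI-MY5 under the same 3 settings. That last contrast had 163 genes and 0 mitotic genes with a pseudocount of 1, 747 and 3 with 64, 137 and 0 with the mean of all probe sets, 6 and 0 with the fraction as a block, and 0 mitotic genes with quantile normalization. A pseudocount of 64 gave 11 mitotic genes in OPM2 minus ARP1 (29.6% of all genes passed). The mean of probe sets and the fraction block gave 5 each in OPM2 minus OCI-MY5 (21.3% and 21.6%). Leaving out single arrays gave 680 to 4229, 952 to 4575 and 0 to 1174 genes, and 0 to 13, 0 to 13 and 0 to 3 mitotic genes.

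For single genes, centring turned TTK to -0.0049, CENPE to -0.010, KIF15 to -0.064, RACGAP1 to -0.16, ANLN to -0.17, CCNB1 to -0.12 and FOXM1 to -0.090 between fractions, also with the block. The mean of all probe sets turned ANLN to -0.027 between fractions, and KIF20B to 0.53 in OPM2 minus OCI-MY5. Leaving out single arrays or lines gave -0.10 to 0.55 for FOXM1 (lowest without the ARP1 CD24+ array). It gave -0.056 to 0.80 for PLK1 (-0.028 without the OCI-MY5 CD24- array), -0.015 to 0.58 for CKS2 and -0.053 to 0.58 for TTK, all 3 lowest without the OPM2 CD24+ array. Leaving out 1 array in this unpaired fit keeps its partner from the same line, so a line's own level enters 1 fraction only. With both OPM2 arrays left out, CKS2, TTK and PLK1 were at 0.22, 0.20 and 0.28. The causes of the other changes were not tested.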
